A study of Danio rerio with 4 samples.

Results

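Shores are the stretches of DNA just outside unmethylated regions, and here they are 1 kb windows that directly adjoin a window that stayed unmethylated throughout early zebrafish development. Whole embryos were profiled by whole-genome bisulfite sequencing at 2, 4, 8 and 24 hpf, the first 3 being the 64-cell, dome and 75% epiboly stages, with 1 library per stage and no treatment or mutation in any of them. Bisulfite turns unmethylated cytosine into uracil and leaves 5-methylcytosine, so that a read reports the state of every CpG it crosses. The zebrafish assembly Zv9 was cut into windows, and a window was used when it held 6 or more covered CpGs and 20 or more reads in all 4 libraries, which 1132687 of 1354664 windows with a CpG did. The level of a window is the number of methylated reads over all reads on its CpGs, called pooled reads below. Windows under 15% at all 4 stages were called constant, and there were 23082 of them (2.04%). Shores were the adjoining windows that reached 25% or more at one stage or more, and there were 23577 (2.08%). They were thus selected on the measured levels of all 4 libraries, and their levels and differences are given as descriptions with no test. The closest comparison is with 94406 windows whose nearest constant window was 2 to 5 windows away and that also reached 25% at one stage or more.

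In vertebrates most CpGs carry methylation, which DNMT1 copies onto the new strand at each cell division. Among the exceptions are CpG-rich stretches, many of them at promoters, that are kept free of methylation. Bound proteins and H3K4 methylation keep the DNA methyltransferases away there. The shore is where one state gives way to the other. A window of intermediate level there can hold a sharp step between unmethylated and methylated CpGs or CpGs that are each methylated in a part of the cells, and the level alone does not separate these. In mammals, shores of CpG islands are known as places where methylation differs between tissues.

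The libraries differ in depth, and a CpG was covered by 28.6, 20.9, 8.04 and 12.3 reads on average at 2, 4, 8 and 24 hpf. Intervals are 95% intervals for counting error only, and they treat the calls of one read at neighbouring CpGs as independent, so those on reads are too narrow. With 1 library per stage the spread between batches of embryos is unknown, and stage and library cannot be told apart. Whole embryos mix cell types, so a level of a window is an average over cells.

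Most ends of runs of constant windows lay directly at a shore. This follows in part from the rule, since a passing neighbour that was not itself constant reached 15% or more at some stage. The constant windows formed 15672 runs, of which 11783 were a single window, 2845 were 2 windows and 1044 were longer, up to 81 windows. Of their 31344 ends, 23834 (76.0%) lay at a shore, 2211 at a window that never reached 25%, and 5299 (16.9%) at a window that did not pass the minimums. In total 9168 runs (58.5%) had a shore at both ends. Shores lay about equally often to the right (11721, with the constant window on their left) and to the left (11599), and 257 (1.09%) had a constant window on both sides. Among the 25 chromosomes the number of shores per 1000 windows ranged between 16.7 on chromosome 4 and 23.6 on chromosome 22. At the threshold, the 207 shores whose highest level was 25 to 26% had median levels of 16.3%, 11.5%, 23.2% and 24.5% at 2, 4, 8 and 24 hpf, and the 166 adjoining windows just outside it had 15.4%, 11.7%, 21.6% and 22.6% at the same stages.

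Shores were already methylated at the first stage. Their median level was 76.8%, 76.7%, 76.5% and 74.9% at 2, 4, 8 and 24 hpf. Windows 2 to 5 away had 92.5%, 92.4%, 93.0% and 89.4% at these stages, while the constant windows had 1.53%, 1.09%, 1.12% and 1.91%. The spread among shores was wide at every stage. The middle 50% of shores lay between 46.4 and 89.8% (2 hpf), 43.7 and 89.9% (4 hpf), 50 and 90.2% (8 hpf), and 50.7 and 87.2% (24 hpf). The lower edge of this range varied more between the libraries than the median did.

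**Figure D1:**
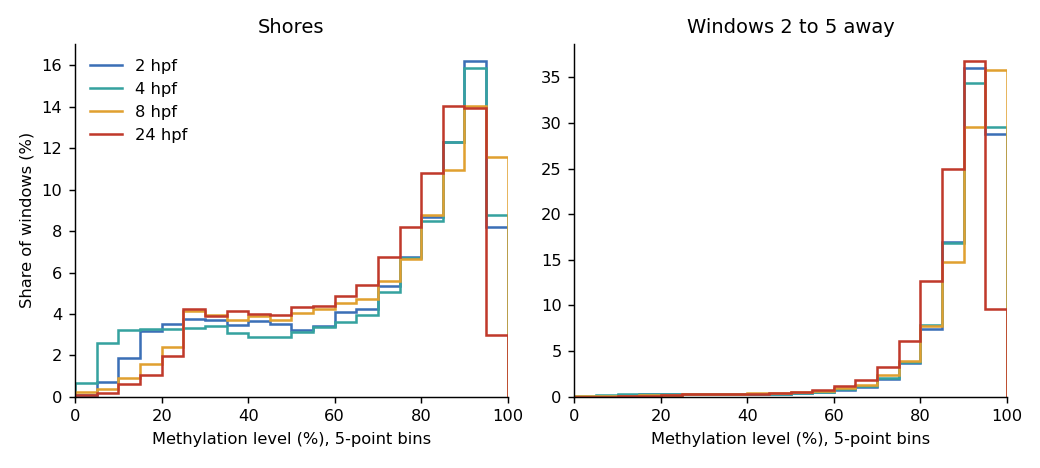
Share of windows (%) in each 5-point bin of methylation level (%), for 23577 shores (left) and 94406 windows 2 to 5 away (right), with 1 line per library and separate vertical scales. Shores spread over the whole range with a peak above 80%, and the lines part at the low and the high end, while most windows 2 to 5 away lie above 80%.

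Outside the constant windows, low levels were found mainly in the first window. Here windows did not have to reach 25% at any stage. Those directly beside a constant window had a median of 72.8% at 4 hpf. Windows 2 away had 92.0%, windows 5 away 92.5% and windows 10 away 92.5%. Windows low enough at every stage to be constant are left out at all these distances by definition. The contrast between the first window and those further out therefore follows in part from the rule. The share under 25% at 4 hpf was 20.2% directly beside a constant window and 2.06% in windows 2 away. Distances count whole windows, so a constant window that fills only a part of its unmethylated stretch leaves the rest of it in the neighbour.

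**Figure D2:**
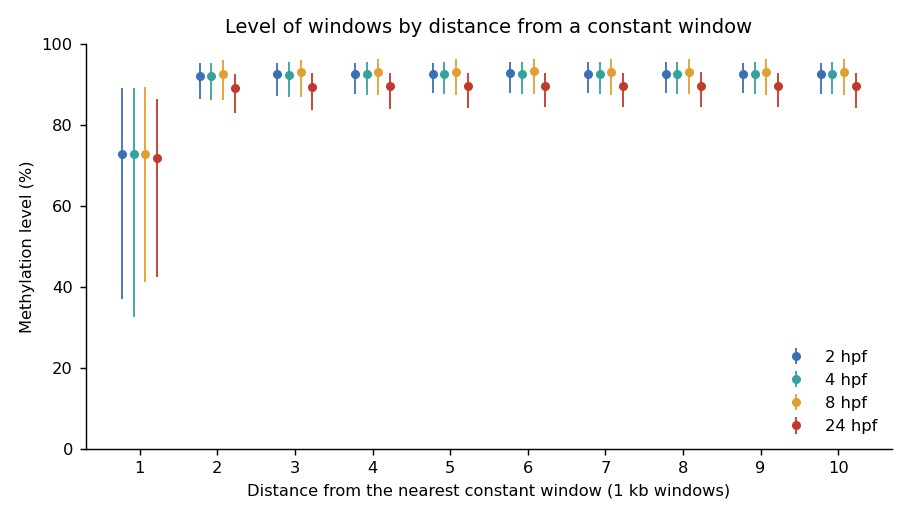
Methylation level (%) of windows at 1 to 10 windows from the nearest constant window, with points for the median and bars for the middle 50% of windows, by stage. At 4 hpf the median is 72.8% directly beside a constant window and 92.0% in windows 2 away, and it stays close to this value further out.

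Within a shore the level climbed steeply outward. In shores with a constant window on one side, the 250 bp nearest to it had a mean CpG methylation of 27.8%, 27.3%, 27.8% and 28.2% at 2, 4, 8 and 24 hpf, taken over the same 95687 CpGs, each with 1 or more reads in all 4 libraries. The next 250 bp outward had 60.9%, 60.4%, 61.1% and 60.3%, those after them 80.4%, 80.0%, 80.9% and 78.8%, and the outermost 250 bp 86.2%, 85.9%, 86.8% and 84.0% at the same stages. Over the same CpGs each stretch of 250 bp thus varied by less than 3 points between the libraries. Without the restriction to shared CpGs the innermost 250 bp varied more, with 27.02%, 26.8%, 34.03% and 33.5% as the mean over each library's own CpGs of 5 or more reads, and 32.3%, 26.98%, 37.8% and 39.6% by pooled reads, at the 4 stages in the same order.

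The border between both states was placed by fitting one step to the CpGs of the constant window, the shore and the next window out, in each library on its own. A fit was made for 23315 of 23320 shores with a constant window on one side, and 22272 (95.5%) had a step of 50 points or more in all 4 libraries. The level on the low side of the step had a median of 1.59%, 1.14%, 1.35% and 2.00% at 2, 4, 8 and 24 hpf, and that on the high side 90.6%, 90.6%, 91.1% and 87.8%. The size of the step and these levels follow in part from the selection. Every fit included a window chosen to be low in all 4 libraries, and windows 2 away were mostly highly methylated. The median border lay 161 bp into the shore at 4 hpf, and 68.0% of borders lay inside the shore and 31.3% still inside the constant window. To see the shape of the step, CpGs were aligned on the border of another library, with 4 hpf aligned on 2 hpf and the other stages on 4 hpf. At 4 hpf the mean methylation was 2.49% between 300 and 250 bp inside the border, 18.5% in the last 50 bp inside, 64.2% in the first 50 bp outside and 85.9% between 250 and 300 bp outside. At 24 hpf these values were 3.97%, 20.96%, 65.6% and 84.7%.

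CpG density also changed near the border, but much of its fall lay inside the border, where methylation was still low. Shores held a median of 13 CpGs per kb (middle 50% of 9 to 19), windows 2 to 5 away held 15, windows more than 5 away 16 and constant windows 29. Around the border the density was 41.4 per kb between 650 and 600 bp inside, 14.6 between 500 and 550 bp outside and 6.60 in the last 50 bp inside. It was 27.6 between 300 and 250 bp inside and 15.9 between 150 and 100 bp inside. Mean methylation at 4 hpf was 2.49% and 7.11% in these 2 places. A fitted border always lies in a gap between CpGs, so the lowest values beside it follow in part from how it was placed.

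Coverage changed across the border as well, and not in the same way in every library. Relative to the mean coverage of its library, the DNA between 650 and 600 bp inside the border had 0.887, 1.17, 0.654 and 0.555 at 2, 4, 8 and 24 hpf, while that between 500 and 550 bp outside had 1.16, 1.15, 1.24 and 1.17. At these distances the unmethylated side was therefore read at about the same depth as the methylated side at 4 hpf, and less deeply at the other stages. Close to the border the order of the libraries was another. In the last 50 bp inside, coverage was 0.859, 0.806, 0.970 and 0.862 at 2, 4, 8 and 24 hpf, so that it was lowest at 4 hpf. The 4 hpf library was aligned on the border at 2 hpf and the others on that at 4 hpf. Values this close to the border are therefore not placed alike in all libraries.

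**Figure D3:**
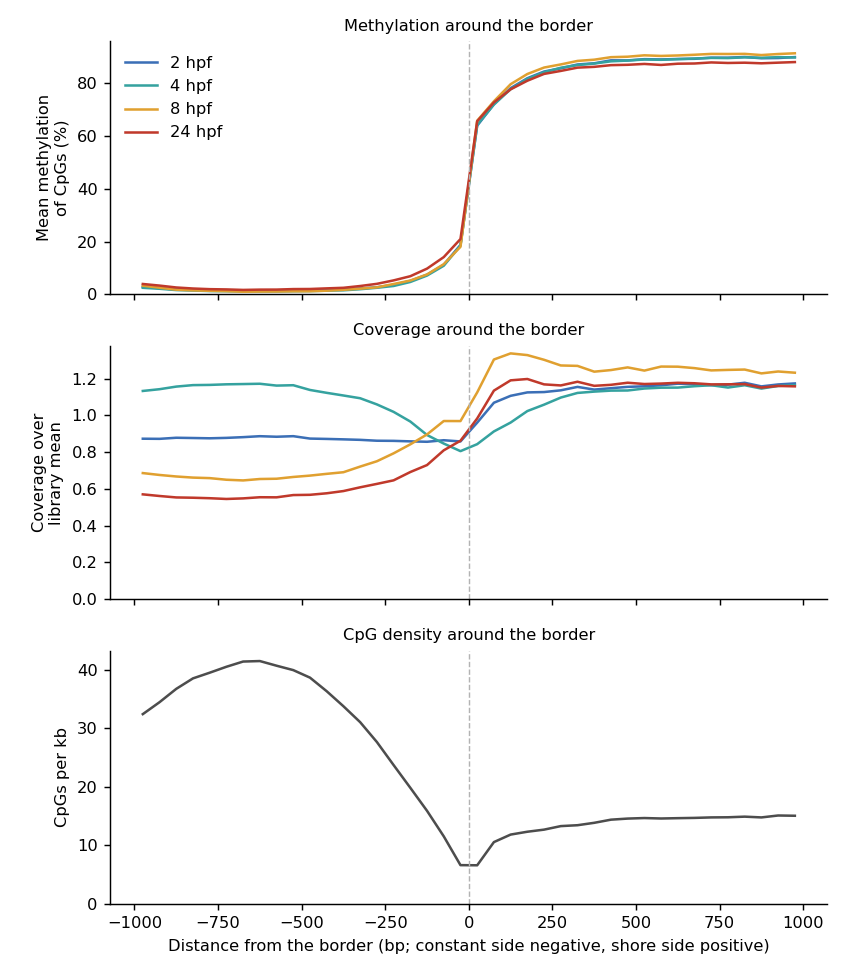
Mean methylation of CpGs with 5 or more reads (top, %), coverage over the library mean (middle) and CpGs per kb (bottom) in 50-bp bins around 22272 borders, against the distance from the border in bp, with the constant side negative. The 4 methylation curves nearly coincide, while on the constant side coverage runs between 0.555 at 24 hpf and 1.17 at 4 hpf in the bin 650 to 600 bp inside.

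Among the borders kept, the position was mostly the same at the 4 stages. The selection favours this, since the adjoining window had to be constant and the step large in all 4 libraries. A border far inside that window at any stage could have lifted its level over the limit, and it would not have counted as constant. How much of the sameness comes from this selection was not tested. The border fell into the same gap between 2 CpGs in all 4 libraries for 12972 of 22272 borders (58.2%, 57.6 to 58.9%). The 4 positions lay within 100 bp of each other for 64.6% of borders, within 250 bp for 85.1% and within 500 bp for 96.4%. Between single stages, 79.3% of borders were in the same gap for 4 against 2 hpf, 73.6% for 8 against 4 hpf, 71.1% for 24 against 8 hpf and 71.7% for 24 against 4 hpf.

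Borders whose intervals did not overlap were found in both directions. For 4 minus 2 hpf, 1753 borders (7.87%) lay further out and 1902 (8.54%) further in. For 8 minus 4 hpf these were 2569 (11.5%) and 1867 (8.38%), for 24 minus 8 hpf 1926 (8.65%) and 2755 (12.4%), and for 24 minus 4 hpf 2331 (10.5%) and 2517 (11.3%). Further out means that the unmethylated side was longer in the later library. The median size of these shifts was 195 bp outward and 180 bp inward for 24 minus 4 hpf, and the mean shift over all borders was 1.60 bp. Shifts that reached far into the constant window can be missing here, because the window had to stay constant at every stage. Since the intervals are too narrow, these counts can include borders that differ by sampling alone. The direction with more borders was not fixed. When the levels of both sides were set to 5 and 90% in place of fitted ones, 9.24% lay further out and 7.22% further in for 4 minus 2 hpf, and 9.48% and 9.98% for 8 minus 4 hpf, so that the larger share changed sides in both pairs. For 24 minus 8 and 24 minus 4 hpf the share further in was the larger one in both fits.

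Shores of intermediate level held mostly CpGs of low or high methylation and fewer intermediate ones. In shores of 25 to 75% at 4 hpf, 40.7% of CpGs with 10 or more reads were under 25%, 39.4% were over 75% and 19.9% were in between. In windows of the same range (25 to 75%) more than 5 windows from any constant window, 21.4% were under 25%, 45.3% over 75% and 33.3% in between. Levels within this range were not matched between both sets. The share of CpGs in between was lower in shores at every stage, being 17.4% against 29.4% (2 hpf), 20.5% against 26.8% (8 hpf) and 22.5% against 27.6% (24 hpf).

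The level of a shore often differed between the libraries when pooled reads were used. In all, 19729 shores (83.7%) were at 25% or more at all 4 stages. A further 1014 were under 25% only at 4 hpf, and 711 reached 25% only at 8 and 24 hpf. Another 680 reached it only at 24 hpf, 440 only at 8 hpf, 116 only at 4 hpf and 45 only at 2 hpf. The rest reached it in other combinations of stages. The range of a shore's 4 levels had a median of 11.04 points, and 5.79 points in windows 2 to 5 away. All 4 levels were over 75% in 42.9% of shores and 87.0% of windows 2 to 5 away, and all were between 25 and 75% in 24.0% and 3.44% of them.

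By pooled reads, differences of 25 points or more from 4 hpf ran mainly upward at 8 and at 24 hpf. For 24 minus 4 hpf, 1402 shores (5.95%) were higher and 292 (1.24%) lower, with 0.558% higher and 0.363% lower among all windows. For 8 minus 4 hpf, 5.61% of shores were higher and 1.45% lower, with 0.439% and 0.248% among all windows. For 24 minus 8 hpf, 1.37% were higher and 1.07% lower, with 0.261% and 0.314% among all windows. For 4 minus 2 hpf, 0.428% were higher and 1.03% lower, with 0.0464% and 0.143% among all windows. Because the rule used these levels, nothing is read from the larger shares among shores. The mean difference of shores for 24 minus 4 hpf was +1.97 points and the median -0.448 points.

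These differences depended on how the CpGs of a window were weighted. Pooled reads give a CpG more weight the more deeply it was read, so that a level can change when depth shifts across the border. Several other ways of taking the level were tried, most of them after the differences above had been seen, and all are given here for shores 25 points or more higher at 24 than at 4 hpf. Over CpGs with 1 or more reads in all 4 libraries, which held 91.9% of the CpGs listed in shores, the share was 5.67% with pooled reads and 0.665% when every CpG counted equally (23471 shores). In the 18816 shores with 6 or more CpGs of 5 or more reads in all libraries, it was 5.11% with pooled reads over all CpGs, 2.96% with pooled reads over those CpGs and 0.574% with equal weight on those CpGs. With the mean of fractions over each library's own CpGs of 5 or more reads, and shores chosen anew on this level, it was 2.29%. With shores chosen anew on pooled reads of CpGs with 5 or more reads in all libraries, it was 3.18%. CpGs of 5 or more reads in all libraries were 62.2% of the CpGs listed in shores. Their mean methylation at 4 hpf was 69.4%, against 45.2% in the other CpGs with 1 or more reads in all libraries. Results with the limit of 5 reads thus leave out CpGs of low methylation more often than others.

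The share was thus lowest whenever the same CpGs were weighted equally. With equal weight on CpGs of 5 or more reads, 108 shores were higher and 46 (0.244%) lower for 24 minus 4 hpf, with 0.148% and 0.147% among all windows measured this way. For 8 minus 4 hpf the equal weight gave 0.239% higher and 0.154% lower, with 0.0646% and 0.0346% among all windows. For 24 minus 8 hpf it gave 0.574% higher and 0.330% lower, with 0.138% and 0.186% among all windows. For 4 minus 2 hpf it gave 0.0319% and 0.0372%, with 0.00690% and 0.0212% among all windows. With the mean of fractions over each library's own CpGs, the shares were 1.58% higher and 1.80% lower for 24 minus 8 hpf, the opposite order to pooled reads, and 0.0661% and 0.0772% for 4 minus 2 hpf. The mean difference of shores for 24 minus 4 hpf changed its sign with equal weight, to -0.962 points, whereas windows 2 to 5 away had -2.43 points with pooled reads and -2.59 points with equal weight. The median range of a shore's 4 levels was 5.98 points with equal weight and 10.1 points with pooled reads in the same shores, against 5.15 points with equal weight in windows 2 to 5 away.

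**Figure D4:**
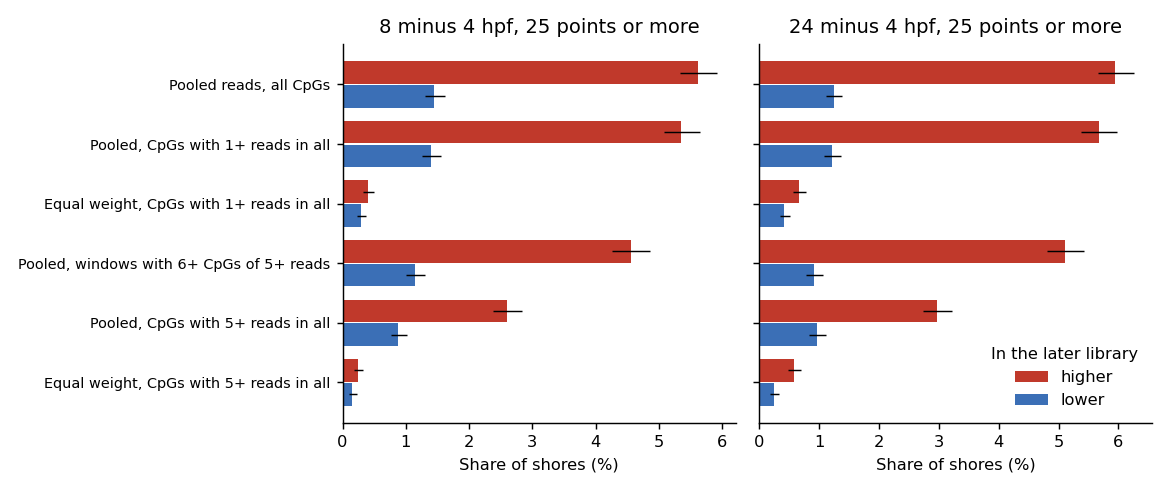
Share of shores (%) that were 25 points or more higher (red) or lower (blue) in the later library, for 8 minus 4 hpf (left) and 24 minus 4 hpf (right), by the CpGs used and their weight, with Wilson 95% intervals. For 24 minus 4 hpf the share higher is 5.95% with pooled reads over all CpGs and 0.574 to 0.665% with equal weight.

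Of the shores that were 25 points or more higher for 24 minus 4 hpf by pooled reads, 961 could be measured with equal weight. Their median difference was 30.6 points with pooled reads and 3.06 points with equal weight, and 88 of them (9.16%) still differed by 25 points. They were selected for large pooled differences, so a smaller difference by another measure follows in part from that. Of 171 shores that were lower for 24 minus 4 hpf, 30 (17.5%) still differed by 25 points. For 8 minus 4 hpf, 30 of 856 (3.50%) higher shores and 15 of 214 (7.01%) lower shores did. For 4 minus 2 hpf, 4 of 60 (6.67%) higher shores and 5 of 168 (2.98%) lower shores did. For 24 minus 8 hpf, 72 of 175 (41.1%) higher shores and 35 of 116 (30.2%) lower shores did.

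The reads on each side of the step were counted where the step had one place. In 8681 shores, selected for this, the border was inside the shore and in the same gap in all 4 libraries, and 714 of these (8.22%) were 25 points or more higher by pooled reads for 24 minus 4 hpf. In these 714 shores the median level of the low side was 1.52% at 24 hpf and 0.942% at 4 hpf, and that of the high side 89.0% at 24 hpf and 88.5% at 4 hpf. The low side held a median of 69.2% of the CpGs, and it took 37.4% of the reads at 24 hpf and 76.7% at 4 hpf. The levels of both sides were thus close between these libraries in these shores, while the share of reads from the low side was not. The selection in part fixes this. With the border in one gap, a pooled difference can come only from the levels of the sides or from their shares of reads. In the 115 shores that were 25 points or more lower, the low side took 55.2% of the reads at 24 hpf and 28.2% at 4 hpf, and the level of the high side also differed, with 84.9% at 24 hpf and 94.2% at 4 hpf. The 714 shores are a part of the 1402 that were higher, and the others, whose border lay elsewhere or differed between libraries, were not divided in this way. Why the depth shifted was not tested.

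Single shores give examples. Named were, among 11981 shores with 100 or more reads and ordinary coverage (0.5 to 2 times the library median) in every library, those with the largest pooled differences. At chr20:16782001-16783000 the pooled level was 30.1%, 9.53%, 27.9% and 64.4% at 2, 4, 8 and 24 hpf. Its border lay in the same gap in all 4 libraries. The 13 CpGs on its low side had 35 reads at 24 hpf (2.86% methylated) and 467 at 4 hpf (1.28%), and the 3 CpGs on its high side had 83 reads at 24 hpf (90.4%) and 47 at 4 hpf (91.5%). At chr6:218001-219000, with 61.8% at 24 hpf and 7.92% at 4 hpf, the low side had 43 reads at 24 hpf (0.00%) and 468 at 4 hpf (0.855%), and the high side 80 (95%) and 37 (97.3%). The largest rise for 8 minus 4 hpf with enough CpGs for both weights was at chr6:39128001-39129000. Its level was 67.9% at 8 hpf and 9.86% at 4 hpf by pooled reads, and 77.8% and 78.4% with equal weight. Only 7 of its 34 CpGs entered the equal weight, whereas its low side held 28 CpGs and its high side 6. The equal weight therefore leaves out most of the low side of this shore. There the low side had 39 reads at 8 hpf and 695 at 4 hpf. Changes at the 4 hpf library alone were seen in the same way at chr21:29954001-29955000. By pooled reads this shore had 23.8% at 4 hpf and 68.3% at 2 hpf. With equal weight on 7 of its 16 CpGs it had 81.0% and 83.3%, while its low side held 10 CpGs and its high side 6.

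A smaller number of shores differed by both measures. At chr7:23006001-23007000 the pooled level was 8.46%, 5.38%, 1.99% and 59.0% at 2, 4, 8 and 24 hpf (54.6 to 63.2%, 497 reads), and with equal weight on 21 CpGs it was 11.01%, 5.42%, 1.19% and 49.1%. This window was nearly unmethylated at the first 3 stages and gained methylation at the last. At chr8:52511001-52512000, beside a run of 8 constant windows, it was 35.6%, 61.2%, 38.1% and 4.86% by pooled reads, and 35.3%, 64.2%, 33.3% and 5.51% with equal weight on 12 CpGs, so that it was lowest at 24 hpf. At chr13:9818001-9819000, beside a run of 17 constant windows, it was 63.2%, 58.5%, 77.2% and 25.6% by pooled reads, and 65.1%, 59.6%, 83.1% and 22.9% with equal weight. At chr9:39346001-39347000 it was 41.4%, 52.8%, 21.1% and 75.1% at 2, 4, 8 and 24 hpf by pooled reads. With equal weight on 8 CpGs it was 37.4%, 50.3%, 20.1% and 67.6%, so that the 8 hpf library was the lowest. At chr7:23054001-23055000 it was 35.4%, 66.0%, 21.6% and 22.9% at 2, 4, 8 and 24 hpf by pooled reads. With equal weight it was 30.9%, 58.4%, 19.1% and 26.6%, so that the 4 hpf library was the highest. Each of these values is from 1 library, and whether other embryos of the stage would show it is not known.

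**Figure D5:**
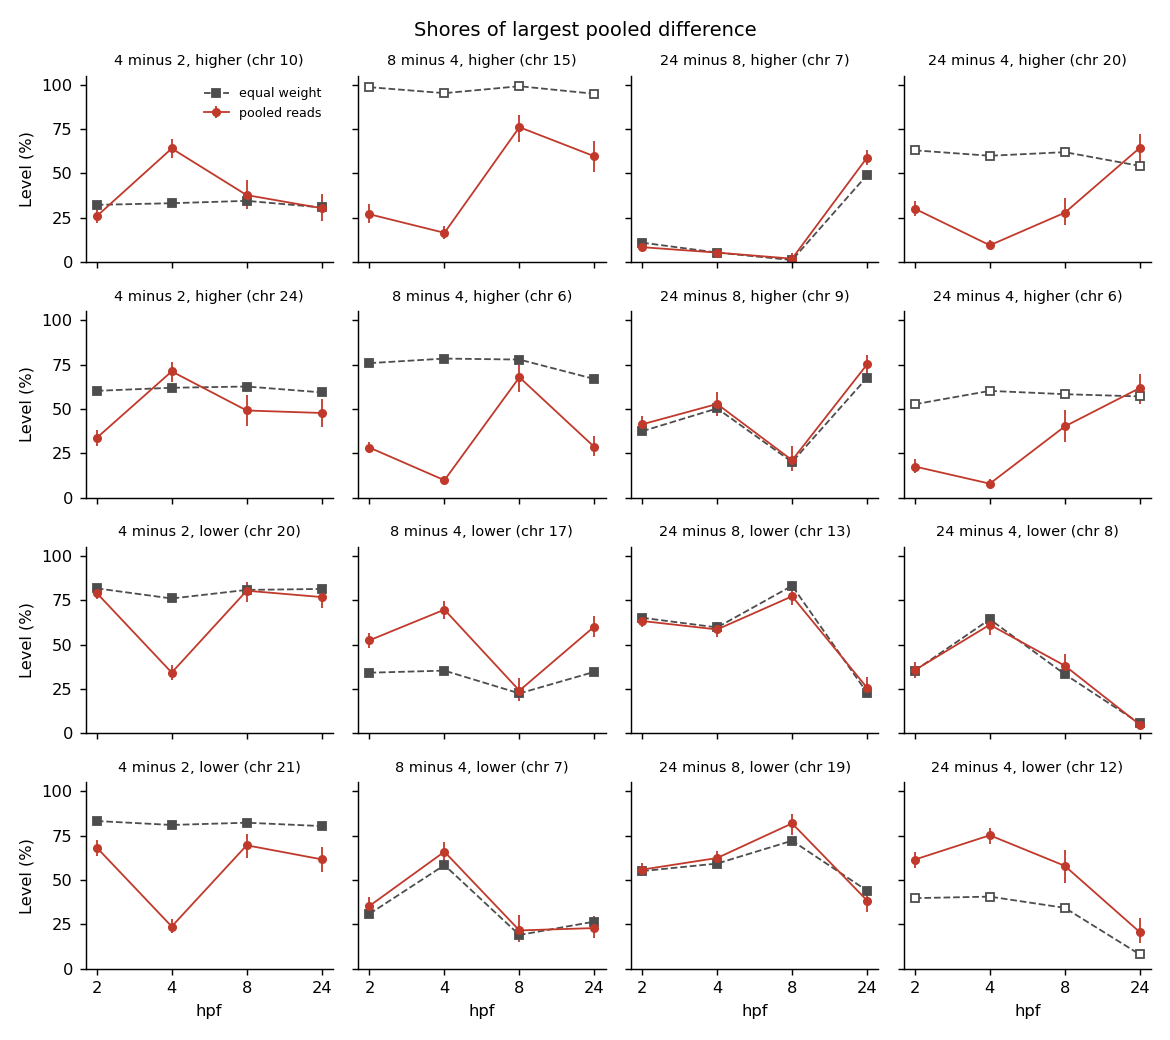
Level (%) at 2, 4, 8 and 24 hpf of the 16 shores with the largest pooled difference in each direction for each pair of stages, by pooled reads (red, Wilson 95% intervals) and with equal weight (grey, open squares where fewer than 6 CpGs had 5 or more reads in all libraries). The curves part in most shores named for 4 minus 2 and 8 minus 4 hpf, and run together in shores on chromosomes 7, 8, 9 and 13.

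Other shores kept an extreme or a middle level. The 257 shores with a constant window on both sides had median levels of 47.3%, 44.4%, 49.2% and 48.8% at the 4 stages, and 26.1% of them were over 75% at 4 hpf. The 2 named are the highest of those within the limits on reads and coverage. Of these, chr12:27166001-27167000 had 95.6%, 93.4%, 95.8% and 93.9% at 2, 4, 8 and 24 hpf, so that a fully methylated window was enclosed by unmethylated ones on either side. At chr6:212001-213000, of the same kind, the levels were 95.8%, 92.5%, 94.3% and 92.5%. The shore closest to 50% throughout, chr2:2924001-2925000, had 49.8%, 48.5%, 50% and 50% by pooled reads and 40.8%, 47.4%, 44.9% and 40.9% with equal weight.

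The number of constant windows in a run went with different levels of its shore, without a steady order. A run can be shorter than its unmethylated stretch, since a window of 15% or more at any stage breaks it. Shores beside a single constant window had a median of 74.7% at 4 hpf (17637 shores), those beside runs of 2 windows 84.1% (4277), those beside 3 to 5 windows 80.4% (1051) and those beside 6 or more 65.6% (355). The median CpG density was 13 per kb in the first 3 of these classes and 12 in the last. At the ends of the 5 longest runs, 4 of 10 ending windows were shores. The run of 81 windows on chromosome 23 began beside the shore chr23:36093001-36094000, which had 24.7%, 10.3%, 25.6% and 34.4% at 2, 4, 8 and 24 hpf by pooled reads, and 19.7%, 19.4%, 16.7% and 15.4% with equal weight. The run of 48 windows on chromosome 19 ended beside chr19:19256001-19257000, with 40.4%, 63.5%, 34.8% and 52.2% by pooled reads and 37.96%, 39.9%, 40.7% and 40.7% with equal weight. In both shores the border lay in the same gap in all 4 libraries.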

How the data were processed

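Timed whole embryos were used for DNA extraction and bisulfite libraries by the authors, who mapped the reads to Zv9 (danRer7). Which aligner was used and how duplicate reads were handled is not given in the sources used here. For every CpG the deposited files give the coverage, with both strands joined, and the fraction of methylated reads, without normalization. This fraction times the coverage was whole within 0.00124 reads. The 24222160 nuclear CpGs were used. The shores and the lists of named regions were chosen with earlier results of these data known.

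Borders were fitted as the binomial change point of largest likelihood on CpGs covered in all 4 libraries. Their intervals hold positions whose likelihood does not fall significantly below the best. Coverage is given over the library mean instead of the planned median. Shares have Wilson intervals. The rule for named shores was the 2 largest pooled differences per pair and direction, the 2 highest with constant windows on both sides, the 2 closest to 50%, and the ends of the 5 longest runs. Alternatives changed the minimums, thresholds, window frame, depth, coverage limit and weights. The choice of shores and the fit of borders were tested on simulated data in which calls were drawn independently. The other measures were not tested in this way. Genes were not assigned, because no annotation of Zv9 was used here. Levels and borders were computed in Python 3.11.15 with numba 0.67.0, numpy 2.4.6 and scipy 1.17.1, tables were made with pandas 2.3.3, and plots with matplotlib 3.10.9.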

Additional observations from a re-analysis of the deposited data

How the results depend on the processing

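The number of shores was 15410 with 10 CpGs and 50 reads and 15437 when only CpGs with 5 or more reads in all 4 libraries were used. It was 18142 with the mean of fractions and 19734 with constant windows under 10%, against 23577 in the main setting. After thinning to the depth of 8 hpf it was 22771, and with windows shifted by 500 bp 23157. Medians of shore levels moved by a few points. At 2, 4, 8 and 24 hpf they were 74.4%, 75%, 74.1% and 73.6% with 10 CpGs and 50 reads, 75%, 75%, 75% and 73.6% with constant windows under 10%, 72.9%, 72.8%, 72.9% and 71.8% over all adjoining windows, 78.5%, 78.8%, 78.3% and 76.4% with only CpGs of 5 reads in all libraries, and 78.3%, 78.0%, 78.9% and 76.1% with equal weight (5 reads). With the mean of fractions they were 76.1% at 4 hpf, 78.4% at 8 hpf and 75.7% at 24 hpf.

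For 24 minus 4 hpf, the shares of shores higher and lower by 25 points were 7.06% and 1.04% with 10 CpGs and 50 reads, 2.29% and 0.402% with the mean of fractions, 6.53% and 1.59% after thinning to the depth of 8 hpf, 3.18% and 0.965% with CpGs of 5 reads in all libraries, and 21.6% and 11.9% at a limit of 10 points. The alternatives added after seeing the data gave 5.11% and 0.909% with pooled reads in the shores fit for equal weight, 2.96% and 0.962% with pooled reads over their CpGs of 5 reads, 0.574% and 0.244% with equal weight on these, and 0.665% and 0.413% with equal weight on CpGs of 1 read. The mean difference was 2.98 points with 10 CpGs and 50 reads, 1.05 with the mean of fractions, 0.718 with CpGs of 5 reads in all libraries, and, in the added alternatives, 1.70, 0.212, -0.962 and -0.949 points in the same order, so it reversed with both equal weights.

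For 8 minus 4 hpf, the shares were 6.45% higher with 10 CpGs and 50 reads, 3.23% and 0.612% with the mean of fractions, 6.06% higher after thinning, 2.75% and 0.939% with CpGs of 5 reads in all libraries, 21.8% and 10.4% at 10 points, and, in the added alternatives in the same order, 4.55% and 1.14%, 2.60% and 0.882%, 0.239% and 0.154%, and 0.400% and 0.290%. The mean difference was 3.35 points with 10 CpGs and 50 reads, 1.79 with CpGs of 5 reads in all libraries, and 2.63, 1.46, 0.807 and 0.725 in the added alternatives.

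The median CpG density was 16 per kb with 10 CpGs and 50 reads, 14 with the mean of fractions and 14 with CpGs of 5 reads in all libraries. Intermediate CpGs at 4 hpf made up 37.3% with limits of 10 and 90%. Borders in the same gap in all 4 libraries made up 51.7% after thinning and 60.5% with a step of 70 points. Shifting the windows by 500 bp moved the share of shores 25 points lower to 1.20% for 4 minus 2 hpf and to 0.911% for 24 minus 8 hpf, beyond their intervals. At a limit of 10 points the shares of shores higher and lower were 11.7% and 13.2% for 24 minus 8 hpf. Among all windows the shares at this limit were 2.23% and 7.45% for 24 minus 8 hpf. They were 2.68% and 7.30% for 24 minus 4 hpf, and 3.56% and 3.41% for 8 minus 4 hpf. For 24 minus 4 hpf lower windows were thus the more frequent, unlike in shores by pooled reads. With equal weight on CpGs of 5 or more reads, lower shores were the more frequent as well. There 4.29% of shores were higher and 5.69% lower for 24 minus 4 hpf at the limit of 10 points. Leaving out windows over 3 times the median coverage left 23433 shores and moved no level, difference or density of shores beyond its interval. No paired analysis was possible because each stage has 1 library, and for the same reason no library could be left out as a replicate. Values at 8 hpf rest on the least depth.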
